A study of Mus musculus with 6 samples.

Results

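The very long protein-coding genes are those whose annotated span, from first to last base in the genome, is at least 500 kb and whose mean level over the 6 libraries of this study is at least 1 FPKM. FPKM is a count of fragments per gene, scaled by the length of the gene and by the depth of the library. By this rule 78 genes were found among the 55850 gene rows of the deposited table. Another 149 protein-coding genes of that span lay below 1 FPKM. The genes were thus selected on their span and on each gene's mean FPKM over all libraries, and not on the difference between the groups. Of the 78 genes, 4 had a mean below 1 FPKM in the wild-type group and 0 in the knockout group, so a few passed the limit through the knockout libraries. These were Rabgap1l, Erc2, Zbtb20 and Clstn2.

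The libraries were made from RNA of whole mouse testis. The wild-type group (WT, 3 libraries) and the conditional knockout group (cKO, 3 libraries) carry no treatment per the labels, and by the title of the series SRSF2 was lost in Sertoli cells, the somatic cells that nurse germ cells inside the seminiferous tubule. For the Cre driver, the strain, the age of the mice and any allele shared by WT and cKO animals, details were not given in the sources used here. Labels do not state that libraries of a group came from separate animals, so the p-values measure the spread between these libraries, which may be technical. The design names gene expression and splicing, and the comparison below concerns expression of very long genes against shorter ones, since these genes ask most of elongation and splicing.

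SRSF2 is a serine and arginine rich protein that binds short exonic enhancers and recruits the spliceosome to nearby splice sites. It is also known to act in the release of RNA polymerase II paused near promoters. A polymerase needs hours to cross the longest mammalian genes, which depend on elongation factors, on topoisomerases that relieve supercoiling, and on exact joining of exons separated by very large introns. Many genes of this size code for adhesion and guidance proteins and are best known from neurons, but somatic cells of the testis transcribe a share of them.

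The demand that these genes place on splicing shows in the exons that must be joined. For the 5 very long genes with the longest introns between coding exons, and for the genes at the top and the bottom of the expression comparison, Dmd and Sdk1, the 48 bases around the longest coding intron are printed as the spliced transcript reads, 5′ to 3′, with 24 bases from each side. Sequences are from GENCODE M21 transcripts of GRCm38, and capitals mark each match to CCNG or GGNG (N is any base), the short consensus known for SRSF2, searched on the transcript strand only and with overlaps allowed.
Asic2: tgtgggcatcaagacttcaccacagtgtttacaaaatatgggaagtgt
Nrg1: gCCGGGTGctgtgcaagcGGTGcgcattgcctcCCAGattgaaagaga
Wwox: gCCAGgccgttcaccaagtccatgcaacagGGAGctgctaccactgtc
Pcdh9: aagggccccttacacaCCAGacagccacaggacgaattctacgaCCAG
Fhit: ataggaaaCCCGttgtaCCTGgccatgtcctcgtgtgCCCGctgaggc
Dmd: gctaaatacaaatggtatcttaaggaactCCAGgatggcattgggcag
Sdk1: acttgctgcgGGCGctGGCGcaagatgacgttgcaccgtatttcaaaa

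The intron removed between base 24 and base 25 is 996015 bases long in Asic2, a subunit of a proton-gated ion channel (chr11:80971615-81967629, minus strand). It measures 915330 bases in Nrg1, a ligand of ERBB receptors (chr8:31968186-32883515, minus strand), and 639386 bases in Wwox, a putative oxidoreductase (chr8:114712252-115351637, plus strand). Pcdh9, a protocadherin, has one of 558942 bases (chr14:93326755-93885696, minus strand), and Fhit, a dinucleoside triphosphate hydrolase, one of 551319 bases (chr14:9870176-10421494, minus strand). Dmd, the gene of dystrophin, spreads 79 exons over its span, and its longest intron is intron 44 with 249539 bases (chrX:84022413-84271951, plus strand). Sdk1, an immunoglobulin-type adhesion protein, has its longest coding intron after exon 1 (chr5:141242093-141582292, plus strand), with 340200 bases.

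Such an intron exists in 77 of the 78 genes, with a median length of 177888 bases against 6502 bases over the 11609 tested protein-coding genes with a coding intron. A match to CCNG or GGNG lay within the 48 bases in 84.4% of the 77 very long genes and in 83.5% of the 11609 genes. The letters around these joins therefore hold the motif about as often as those of other genes, and a match does not show that the protein binds there.

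All 78 genes were found by identifier in GENCODE M21 and span at least 500 kb there too. Their median span was 606 kb, and 12 of them reached 1000 kb. The largest by the span in the deposited table, given here with their GENCODE M21 positions, were Fgfr2 (chr7:130162451-133123350, minus strand), Ptprd (chr4:75941238-78211961, minus strand), Dmd (chrX:82948870-85206141, plus strand), Fhit (chr14:9550092-11162035, minus strand) and Rbms3 (chr9:116572746-117629913, minus strand). For Rbms3 the table's span is 1299.9 kb and that of GENCODE M21 1057 kb, which is less than in Auts2 (1106 kb) and Nrg1 (1069 kb). The deposited table also gives each gene a gene length, by which FPKM was scaled. Its median was 12149.5 bases for the very long genes against 4390 bases for the 12277 shorter tested protein-coding genes. How this length was built was not given in the sources used here, and it need not be that of a single transcript. In GENCODE M21 the transcript with the most exon bases had a median of 18.5 exons against 8. Median transcript GC was 47.3% against 49.97%, and CCNG and GGNG matches numbered 32.9 per kb of transcript against 38.8. Levels were modest: the median of the mean FPKM was 2.67 against 8.44, 19 genes reached 5 FPKM and 4 reached 10 FPKM. Each gene had 22 to 3760 recovered reads per library, with a median of 562.

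The annotated span is not always that of a gene's main GENCODE M21 transcript, taken here as the one with the most exon bases. Which transcripts the authors counted is not stated. In 22 of the 78 genes the transcript with the most exon bases spans less than 500 kb. Fgfr2 owes its 2961 kb to 1 of 19 coding transcripts, while its transcript with the most exon bases covers 104 kb. In Sema6d, a transmembrane semaphorin, the transcript with the most exon bases covers 57.5 kb of 578 kb. In 6 genes, among them Robo1, Tenm3 and Auts2, no coding transcript reaches 500 kb. For 10 genes more than 5% of exon bases are shared with another annotated gene, at most 11.7% in Arhgap6, and how the authors' counting divided such reads is not stated; Lrba, Celf2, Fars2, Fhit and Kcnma1 are uncertain for this reason.

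At the limits, Dock1 (503 kb), Fgf13 (506 kb) and Aff2 (508 kb) were the last genes inside the limit of span, and Prkce (490.1 kb), Dennd1a (488.4 kb) and Aff3 (487.6 kb) were the first outside. Inside the limit of level were Erc2 (1.02 FPKM), Zbtb20 (1.02 FPKM) and Clstn2 (1.04 FPKM), and outside were Rora (0.976 FPKM), Dlgap1 (0.972 FPKM) and Macrod2 (0.968 FPKM).

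Depth was even, with 16070287 to 17281330 recovered reads per library. Defining markers of Sertoli, germ, Leydig, peritubular myoid and endothelial cells and of macrophages were all detected, the lowest being Adgre1 near 1 FPKM, as fits a whole testis. Srsf2 itself was at 127, 96.7 and 102 FPKM in WT and at 74.0, 87.3 and 87.3 FPKM in cKO replicates 1 to 3, without overlap (log2 difference -0.38, SE 0.15, limma adjusted p = 0.384). A bulk sample also holds Srsf2 RNA of all other testis cells. Reads of the 18S ribosomal RNA made up 1.58% to 2.09% of the total in WT and 0.727% to 0.835% in cKO libraries, and mitochondrial reads 1.66% to 1.98% and 2.39% to 2.97%. The groups were apart in both shares, in opposite directions, and the part of this in the results was not tested.

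None of the 78 very long genes passed the test between cKO and WT. The test was limma on log2(FPKM + 1), fitted on all 14238 genes with a mean of at least 1 FPKM and adjusted over all of them by the Benjamini-Hochberg method with a threshold of 0.05. On this scale the change of a gene of low level appears smaller than it is. In the same fit 2 of 14238 genes passed (0.0140%), so a count of 0 among 78 is not particular to very long genes. At an unadjusted p under 0.05, 1 of the 78 was higher in cKO, against 4.65% of all genes, and 0 were lower, against 7.68%. The lowest adjusted p among them was 0.378, for Dmd, and limma voom on recovered reads also called 0.

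Differences were small in both directions. The log2 differences, cKO minus WT, ran from -0.29 in Sdk1 to 0.44 in Dmd, and 35 of the 78 lay within 0.1 of 0. Their median SE was 0.16, and only the 95% interval of Dmd lay wholly on one side of 0. The median width of the intervals, 0.75 on the log2 scale, is the resolution this design gave for these genes, and moderate shifts of single genes were not detectable at it.

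The signs were uneven over all 6 libraries: 59 of 78 genes (75.6%) had a positive difference, against 50.8% of all genes tested. This was not particular to them. The share was 71.2% in tested protein-coding genes spanning 200 to 500 kb, 71.3% from 100 to 200 kb and 67.2% from 30 to 100 kb. The median difference was 0.09 for the very long genes, 0.01 for the shorter protein-coding genes and 0.00 for all genes. In 7 genes (8.97%) the cKO values all lay above the WT values, against 8.69% of all genes, and in 1 gene (1.28%) they all lay below, against 9.92%. The share with separated, higher cKO values was thus near the background. These 7 genes were Dmd, Fgfr2, Syt1, Rabgap1l, Rasgef1b, Camta1 and Erc2, and the 1 gene was Kirrel3. Rabgap1l and Erc2 had a WT mean below 1 FPKM and passed the limit of level through their cKO values, so the filter favoured their place here.

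**Figure D1:**
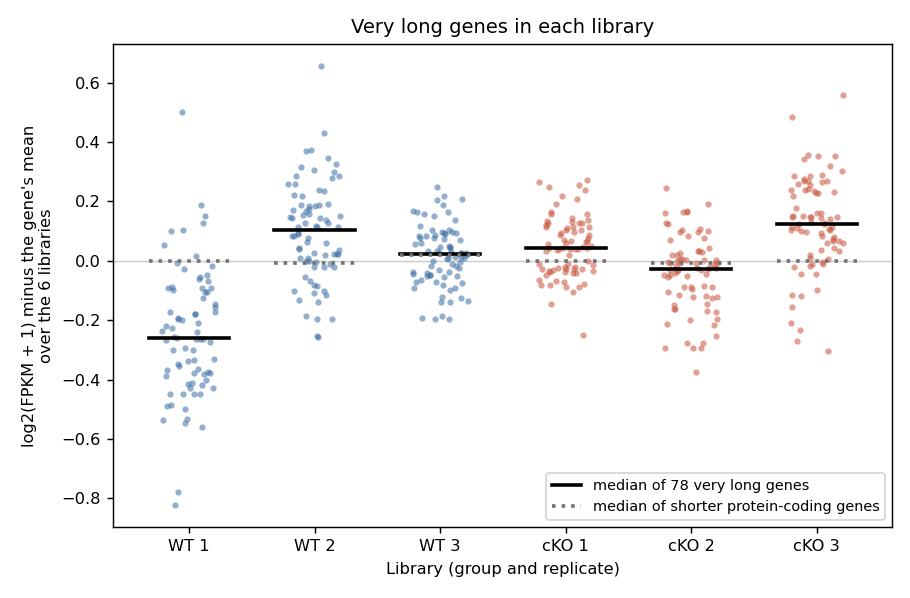
Each point is 1 of the 78 very long genes in 1 library, as log2(FPKM + 1) minus that gene's mean over the 6 libraries (vertical axis, log2 units), with libraries along the horizontal axis, WT in blue and cKO in red. Solid bars are medians of the very long genes and dotted bars medians of the shorter protein-coding genes; WT replicate 1 sits at -0.26 and the other 5 libraries lie between -0.03 and 0.13.

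Of the 6 libraries, WT replicate 1 moved the median difference of these genes most when left out. WT replicate 1 held the lowest of the 6 values in 55 of 78 genes (70.5%), against 28.0% of all genes, and the highest in 3, against 26.9%. Other libraries were uneven too. The highest value lay in cKO replicate 3 in 31 genes (39.7%, against 19.8% of all genes) and in WT replicate 2 in 26 (33.3%, against 13.3%). Leaving out cKO replicate 3 gave a median difference of 0.06. The median centred level of the very long genes was -0.26, 0.10 and 0.02 in WT replicates 1 to 3 and 0.04, -0.03 and 0.13 in cKO replicates 1 to 3. WT replicate 1 was thus far below the rest, while the other WT libraries overlapped the cKO libraries. Over all shorter protein-coding genes its centred median was 0.00, but this joins short genes that lay high in that library with longer ones that lay low, as the classes of span show.

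Without WT replicate 1 the median difference of the very long genes was -0.0054, against -0.0050 for the shorter protein-coding genes. Positive differences then numbered 38 of 78 (48.7%, against 49.3% of all genes), and 68 of the 78 genes had a lower difference than with all libraries. Sign changed in 21 genes. Groups did not overlap in 9 genes higher in cKO, against 16.2% of all genes, and in 13 genes lower in cKO, against 18.1%. None passed limma's threshold, and at an unadjusted p under 0.05 there was 1 gene higher (5.58% of all genes) and there were 2 lower (7.56%).

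The share of reads gave the same picture. Very long genes took 0.286%, 0.445% and 0.391% of reads in WT replicates 1 to 3 (0.374% ± 0.081, SD, n = 3) and 0.406%, 0.372% and 0.447% in the cKO replicates (0.408% ± 0.0371, SD, n = 3). WT replicate 1 was the lowest, WT replicate 2 nearly matched the highest cKO library, and the groups overlapped. Without WT replicate 1 the WT mean was 0.418%, above the cKO mean.

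**Figure D2:**
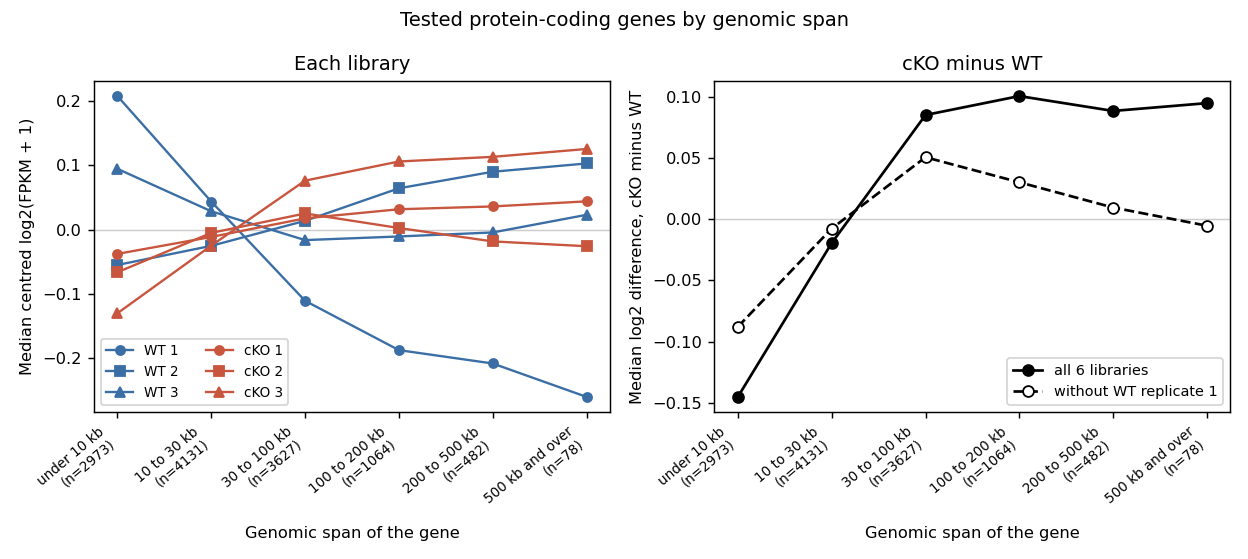
Left, the median centred log2(FPKM + 1) of tested protein-coding genes in each library (lines, WT blue and cKO red) by class of genomic span (horizontal axis, number of genes in brackets); right, the median log2 difference of cKO minus WT with all 6 libraries (filled) and without WT replicate 1 (open). The line of WT replicate 1 falls from 0.21 in the shortest class to -0.26 in the longest, and the open line ends at -0.01.

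Across classes of span, the very long genes stood at the end of a gradient that began at short genes. With all libraries, the median log2 difference was -0.15 below 10 kb, -0.02 from 10 to 30 kb, 0.09 from 30 to 100 kb, 0.10 from 100 to 200 kb, 0.09 from 200 to 500 kb and 0.09 at 500 kb and over. Beyond 30 kb the medians no longer climbed with span. Without WT replicate 1 they were -0.09, -0.01, 0.05, 0.03, 0.01 and -0.01, so the class of longest genes lay at the level of the genes of 10 to 30 kb. In WT replicate 1 the centred median fell from class to class: 0.21, 0.04, -0.11, -0.19, -0.21 and -0.26.

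Within the very long genes, the low values of WT replicate 1 went with the table's gene length. Little relation to genomic span was seen within this set, which is cut at 500 kb. The centred median of WT replicate 1 was -0.02 over the 12 genes with gene lengths under 6 kb. It was -0.18 over 17 genes of 6 to 10 kb and -0.34 over 49 genes of 10 kb and over. WT replicate 1 was the lowest library in 2, 12 and 41 of them. Among all protein-coding genes with gene lengths of 10 kb and over, its centred median fell across classes of span. It was -0.23 for 605 genes spanning under 100 kb, -0.30 for 526 spanning 100 to 500 kb and -0.34 for the 49 very long ones. Over the 78 genes, which share the same libraries, Pearson's r between log10 gene length and the centred value in WT replicate 1 was -0.49 (Spearman's rho -0.50). With log10 span r was -0.01. The correlations are across genes, which are not independent replicates, and are a description.

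Base composition went with the difference between groups. Over the 78 genes r between transcript GC and the log2 difference was -0.43 with all libraries and -0.42 without WT replicate 1. Very long genes with GC of 50% and over (24 genes) had a median difference of 0.01 with all libraries and -0.12 without WT replicate 1, while the 23 genes under 45% had 0.14 and 0.04. Genes spanning under 100 kb showed a wider split, from -0.14 in 5596 genes of 50% and over to 0.19 in 2623 genes under 45%. Removing each library's trend on gene length left a median of -0.02 for the very long genes, and removing the trends on gene length and GC left -0.01.

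**Figure D3:**
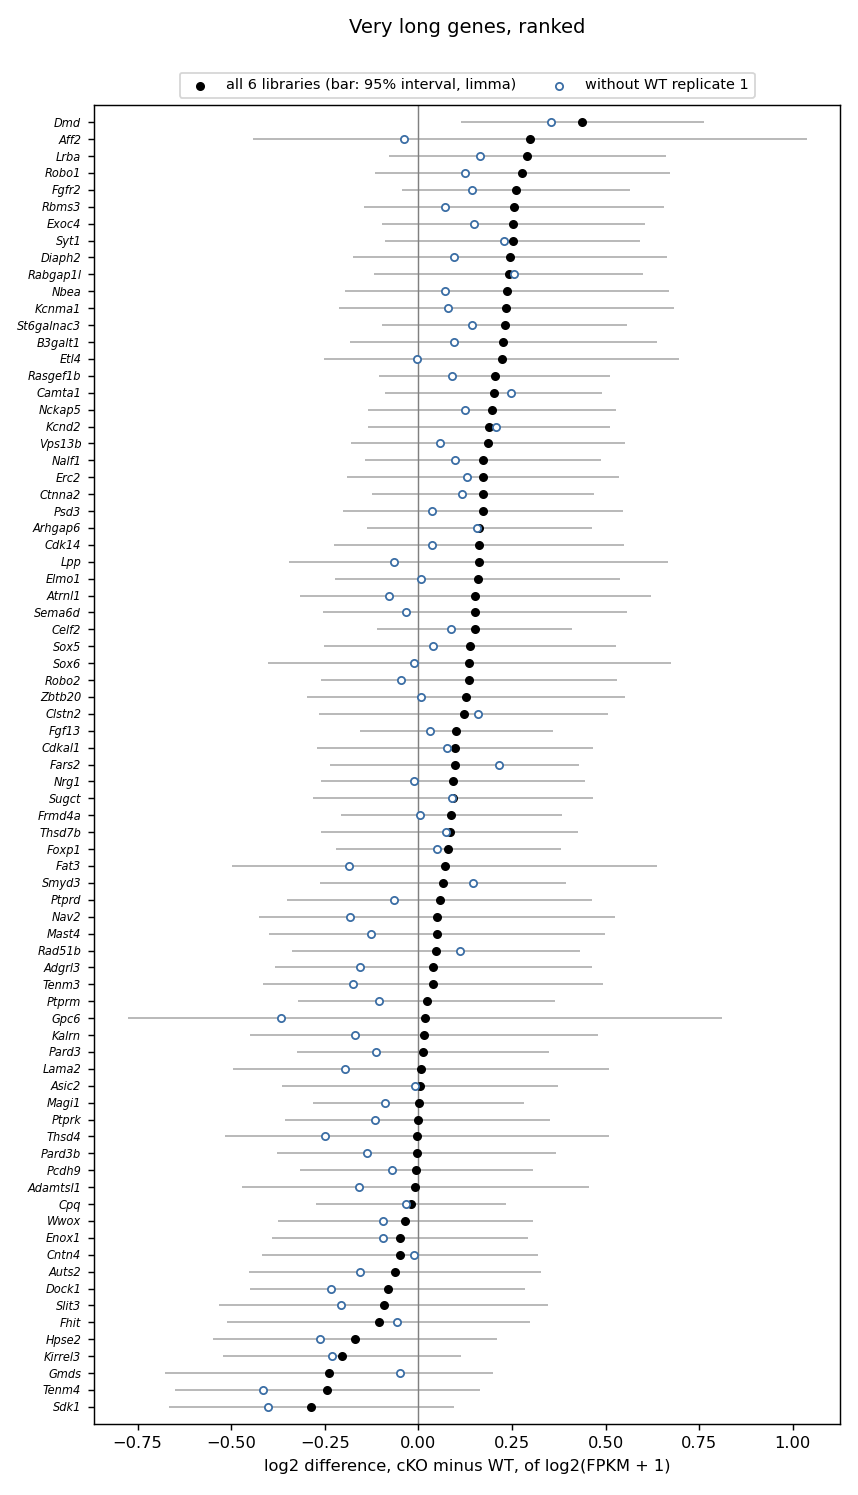
Of the 78 very long genes, 77 (vertical axis) ranked by log2 difference of cKO minus WT (horizontal axis, log2 units); filled points use all 6 libraries with limma's 95% interval as a bar, and open points leave out WT replicate 1. The bar of Dmd alone lies clear of 0, and most open points lie to the left of the filled ones.

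Of the adhesion and guidance genes, the largest group with 20 members, 12 had a positive and 8 a non-positive difference, with a median of 0.02. These proteins sit at the cell surface and sort contacts between cells or steer their processes. None passed the test. Without WT replicate 1 the median was -0.11 and 2 of 20 were positive, against 49.3% of all genes. In 15 of the 20, WT replicate 1 was the lowest library.

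Sdk1 had 2.35, 3.47 and 3.06 FPKM in WT and 2.74, 1.91 and 2.08 FPKM in cKO replicates 1 to 3. The cKO replicates 2 and 3 lay below every WT library, but cKO replicate 1 lay above WT replicate 1, so the groups overlapped (log2 difference -0.29, SE 0.17, limma adjusted p = 0.495). Tenm4, a teneurin, that is, a large transmembrane adhesion protein, had 5.83, 9.72 and 7.87 FPKM in WT and 6.59, 5.50 and 6.94 FPKM in cKO. Here WT replicate 1 fell within the range of the cKO libraries and both other WT libraries lay above it (log2 difference -0.24, SE 0.18, adjusted p = 0.574). Without WT replicate 1 the differences of Sdk1 and Tenm4 were -0.40 and -0.41.

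Kirrel3, an immunoglobulin-type adhesion protein, had 1.85, 2.21 and 1.81 FPKM in WT and 1.597, 1.52 and 1.57 FPKM in cKO. Every cKO library lay below every WT library, and WT replicate 1 was not the lowest of its group (log2 difference -0.20, SE 0.14, limma adjusted p = 0.548). Tenm3, the related teneurin with the highest level of the group, had 7.69, 13.0 and 12.2 FPKM in WT and 11.95, 9.33 and 11.98 FPKM in cKO. Its WT replicate 1 was the lowest of the 6, while WT replicates 2 and 3 lay above every cKO library. The log2 difference was 0.04 with all libraries and -0.18 without WT replicate 1.

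The Slit and Robo proteins are a ligand and its receptors, known for guidance of axons. Robo1 had 3.99, 6.57 and 5.24 FPKM in WT and 6.58, 5.68 and 7.28 FPKM in cKO (log2 difference 0.28, SE 0.17, limma adjusted p = 0.521). Robo2 had 6.32, 10.2 and 9.15 FPKM in WT and 8.61, 9.001 and 10.5 FPKM in cKO (log2 difference 0.14). For both receptors WT replicate 1 was lowest and cKO replicate 3 highest. The other libraries overlapped in Robo1, while in Robo2 WT replicates 2 and 3 lay above cKO replicates 1 and 2. Leaving out WT replicate 1 gave differences of 0.12 for Robo1 and -0.05 for Robo2. Slit3, the ligand, had 4.57, 7.15 and 5.08 FPKM in WT and 6.57, 4.601 and 4.36 FPKM in cKO, with WT replicate 2 and cKO replicate 1 above the others (log2 difference -0.09). Sema6d had 5.88, 9.71 and 8.56 FPKM in WT and 8.15, 8.58 and 10.01 FPKM in cKO, a difference of 0.15 that was -0.03 without WT replicate 1. Ptprd, a receptor tyrosine phosphatase of 2271 kb, had 3.71, 5.90 and 4.34 FPKM in WT and 4.43, 4.24 and 5.85 FPKM in cKO. Its groups covered the same range (log2 difference 0.06).

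Among the 7 matrix and glycan genes 4 had a positive difference, and the median was 0.01 with all libraries and -0.19 without WT replicate 1. Gpc6, a glypican, which is a heparan sulphate proteoglycan tethered to the membrane, varied most between libraries of a group. It had 2.11, 7.42 and 4.71 FPKM in WT and 4.77, 3.12 and 5.52 FPKM in cKO, so that WT alone spanned the whole range (log2 difference 0.02, SE 0.34, limma adjusted p = 0.987; -0.37 without WT replicate 1). Lama2, an alpha chain of laminin in basement membranes, had 5.04, 9.41 and 7.18 FPKM in WT and 6.62, 5.92 and 8.91 FPKM in cKO, likewise with the cKO values inside the WT range (log2 difference 0.01).

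St6galnac3, a sialyltransferase, had 2.87, 3.80 and 3.50 FPKM in WT and 3.61, 4.08 and 4.78 FPKM in cKO. One cKO library lay below the highest WT library, so the groups met at their edges (log2 difference 0.23, SE 0.14, adjusted p = 0.522 by limma).

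Of 7 cytoskeletal genes 6 had a positive difference, with a median of 0.09 (0.01 without WT replicate 1). Dmd stood first among all very long genes. Dystrophin ties actin filaments to dystroglycan and so to laminin outside the cell. The gene had 1.71, 2.24 and 2.23 FPKM in WT and 2.90, 2.99 and 3.54 FPKM in cKO replicates 1 to 3, with every cKO library above every WT library. Means were 2.06 ± 0.302 and 3.14 ± 0.347 FPKM (SD, n = 3), and the log2 difference was 0.44 (SE 0.14, 95% interval 0.11 to 0.76, limma adjusted p = 0.378). It was 0.35 without WT replicate 1, and no alternative brought it below 0.19 or above 0.63. Its transcript GC, 41.5%, was on the low side of the group.

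Dock1, an exchange factor that activates Rac at the membrane, had 9.25, 13.3 and 12.8 FPKM in WT and 11.2, 9.61 and 12.2 FPKM in cKO, all cKO values within the WT range (log2 difference -0.08; -0.23 without WT replicate 1). Nav2, a microtubule-binding navigator protein, had 2.69, 5.44 and 4.53 FPKM in WT and 4.31, 3.82 and 4.70 FPKM in cKO. Frmd4a, a scaffold at cell junctions, had 3.29, 4.41 and 3.79 FPKM in WT and 4.03, 3.95 and 4.36 FPKM in cKO. In all 3 genes WT replicate 1 was the lowest and WT replicate 2 the highest library.

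**Figure D4:**
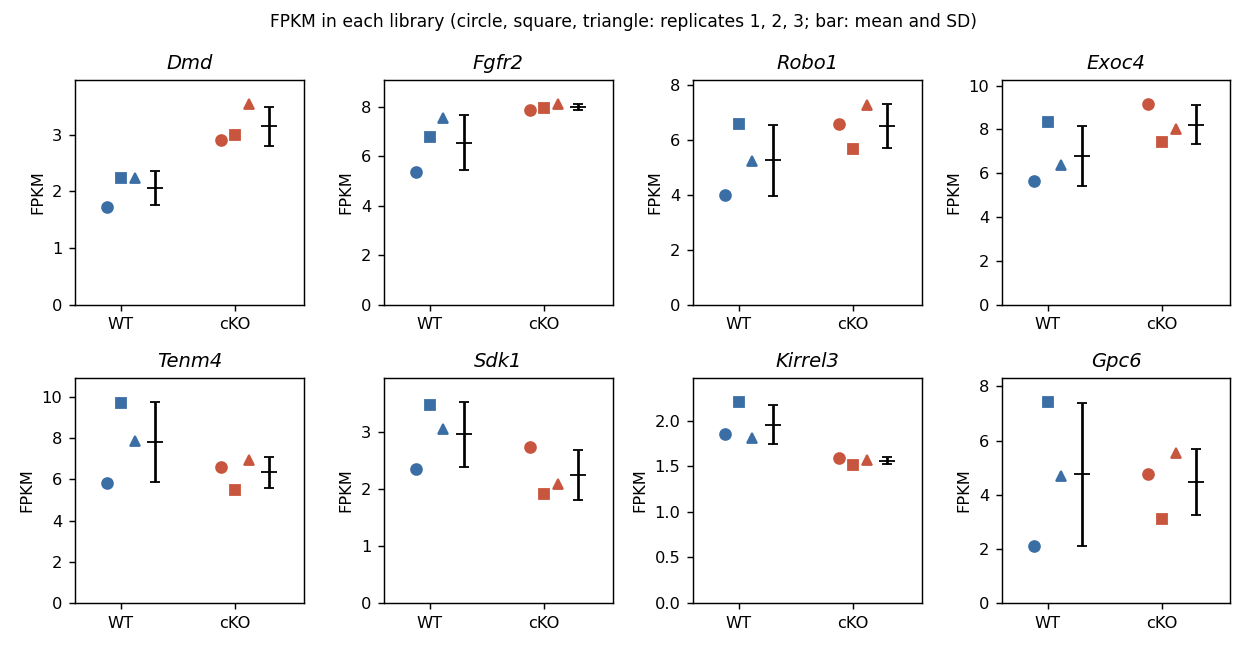
FPKM (vertical axes, from 0) of 8 very long genes in each WT (blue) and cKO (red) library, with replicates 1, 2 and 3 as circle, square and triangle and the group mean with its SD as a black bar. Groups are apart in Dmd, Fgfr2 and Kirrel3, and in Gpc6 the WT libraries alone span 2.11 to 7.42 FPKM.

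All 5 signalling genes had positive differences, with a median of 0.16 (0.03 without WT replicate 1). Fgfr2, a receptor tyrosine kinase for fibroblast growth factors, had 5.35, 6.75 and 7.53 FPKM in WT and 7.87, 7.95 and 8.11 FPKM in cKO. The cKO libraries lay close together above every WT library (log2 difference 0.26, SE 0.13, limma adjusted p = 0.447; 0.14 without WT replicate 1). Syt1, the calcium sensor of vesicle fusion, had 1.18, 1.27 and 1.31 FPKM in WT and 1.92, 1.46 and 1.68 FPKM in cKO, also apart (log2 difference 0.25, SE 0.15, adjusted p = 0.504). WT replicate 1 was little below its group here, and the difference without it was 0.23.

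Fgf13 is an intracellular member of the fibroblast growth factor family that is known to modulate sodium channels. It had 6.79, 8.06 and 7.98 FPKM in WT and 8.19, 7.85 and 8.63 FPKM in cKO, with overlap (log2 difference 0.10). Nrg1 had 2.24, 2.94 and 3.14 FPKM in WT and 2.64, 2.85 and 3.57 FPKM in cKO, also with overlap (log2 difference 0.09).

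Among 8 genes of transcription and chromatin 7 had a positive difference, and the median was 0.10 (0.04 without WT replicate 1). Camta1, a calmodulin-binding transcription activator, had 2.53, 2.31 and 2.10 FPKM in WT and 2.65, 2.97 and 2.81 FPKM in cKO. The groups did not overlap, and WT replicate 1 was the highest of its group (log2 difference 0.20, SE 0.13, limma adjusted p = 0.526; 0.25 without it). Foxp1, a forkhead repressor, had 2.24, 2.43 and 2.49 FPKM in WT and 2.63, 2.27 and 2.86 FPKM in cKO, with overlap. Auts2, a partner of Polycomb complexes, had 2.80, 4.07 and 3.20 FPKM in WT and 3.62, 2.45 and 3.45 FPKM in cKO, with the lowest value in cKO replicate 2 (log2 difference -0.06).

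The 3 RNA-binding genes and the 2 channel genes all had positive differences, with and without WT replicate 1. Celf2, a splicing regulator, had 4.68, 5.57 and 5.36 FPKM in WT and 5.83, 5.55 and 6.24 FPKM in cKO, where WT replicate 2 and cKO replicate 2 nearly coincided (log2 difference 0.15). Rbms3, a single-strand binding protein, had 4.04, 6.23 and 6.58 FPKM in WT and 6.70, 6.13 and 7.57 FPKM in cKO, with WT replicate 1 far below the other values (log2 difference 0.26; 0.07 without it). The potassium channel gene Kcnd2 had 2.32, 1.88 and 2.52 FPKM in WT and 2.39, 2.86 and 2.82 FPKM in cKO (log2 difference 0.19). Kcnma1, a calcium-activated potassium channel, had 0.704, 1.54 and 1.18 FPKM in WT and 1.36, 1.35 and 1.78 FPKM in cKO (log2 difference 0.24; 0.08 without WT replicate 1). Both channels overlapped between groups, Kcnd2 with WT replicate 2 lowest and Kcnma1 with WT replicate 1 lowest.

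**Figure D5:**
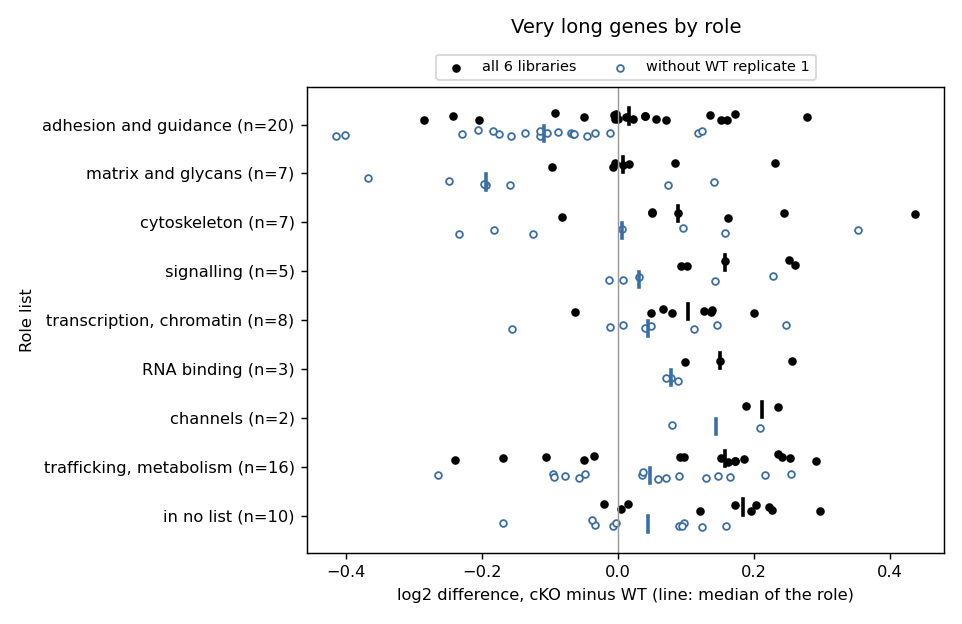
Log2 difference of cKO minus WT (horizontal axis) of each very long gene by role (vertical axis, number of genes in brackets), with all 6 libraries (black) and without WT replicate 1 (blue, open); short vertical lines are medians of a role. The median of the adhesion genes is 0.02 with all libraries and -0.11 without WT replicate 1.

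Trafficking and metabolism held 16 genes, of which 11 had a positive difference (median 0.16; 0.05 with 10 positive without WT replicate 1). Exoc4, a subunit of the exocyst that tethers vesicles, had 5.65, 8.33 and 6.37 FPKM in WT and 9.17, 7.44 and 8.03 FPKM in cKO. WT replicate 2 lay among the cKO values (log2 difference 0.25, SE 0.15, limma adjusted p = 0.510). Lrba, a BEACH-domain protein that keeps receptors from degradation, had 1.45, 2.43 and 1.97 FPKM in WT and 2.56, 2.39 and 2.79 FPKM in cKO, with WT replicate 2 just above cKO replicate 2 (log2 difference 0.29, adjusted p = 0.478). Rabgap1l, which acts on Rab GTPases, had 1.02, 1.03 and 0.890 FPKM in WT and 1.21, 1.28 and 1.53 FPKM in cKO. All of its cKO values were the higher ones, and WT replicate 1 was not lowest (log2 difference 0.24, and 0.26 without it). The WT mean of this gene was below 1 FPKM, so it passed the limit of level through its cKO values.

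Atrnl1, an attractin-like membrane protein, was the most abundant very long gene, with 12.4, 19.7 and 21.6 FPKM in WT and 18.04, 18.3 and 22.4 FPKM in cKO. WT replicate 1 was the lowest by far, and the difference of 0.15 was -0.08 without it. Fars2, a mitochondrial tRNA synthetase with a gene length in the table of under 6 kb, was highest in WT replicate 1 among WT. It had 6.97, 4.86 and 5.61 FPKM in WT against 5.98, 6.99 and 5.78 FPKM in cKO. Gmds is an enzyme of fucose synthesis whose gene length is also under 6 kb. It had 5.76, 3.56 and 3.53 FPKM in WT and 4.07, 3.32 and 2.87 FPKM in cKO. WT replicate 1 alone stood high there (log2 difference -0.24, limma adjusted p = 0.604; -0.05 without it).

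Hpse2, a heparanase-like protein, had 2.92, 4.15 and 3.45 FPKM in WT and 3.73, 2.81 and 2.50 FPKM in cKO, with overlap (log2 difference -0.17). Fhit had 1.39, 0.879 and 1.48 FPKM in WT and 1.22, 1.03 and 0.986 FPKM in cKO, again with overlap, and rests on only 22 to 36 reads per library (log2 difference -0.11).

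Of 10 genes in none of these roles, 9 had a positive difference (median 0.18; 0.04 with 5 positive without WT replicate 1). Etl4 had 7.10, 12.2 and 11.7 FPKM in WT and 10.7, 10.99 and 14.3 FPKM in cKO, a difference of 0.22 that was 0.00 without WT replicate 1. Rasgef1b, an exchange factor for Ras-type GTPases, had 2.88, 3.80 and 4.03 FPKM in WT and 4.21, 4.22 and 4.26 FPKM in cKO. Its cKO values were almost equal and lay above every WT value (log2 difference 0.20, SE 0.13, limma adjusted p = 0.538). Cpq, a peptidase, had 8.56, 8.31 and 9.38 FPKM in WT and 7.99, 9.34 and 8.52 FPKM in cKO, with mixed groups. Aff2, of a family of elongation scaffolds, had 0.718, 2.74 and 2.20 FPKM in WT and 2.35, 1.55 and 3.47 FPKM in cKO. It had the second largest positive difference, 0.30, but also an SE of 0.32, and the difference was -0.04 without WT replicate 1.

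The genes that serve long transcription units were read from lists of 38 elongation factors and topoisomerases and 22 RNA-binding proteins of long introns. All were tested and none passed limma's threshold; at an unadjusted p under 0.05, 1 of the 38 was higher and 0 lower, and 2 of the 22 were higher and 4 lower, against 4.65% higher and 7.68% lower of all genes. Of the 38, 26 had a positive difference with a median of 0.10 (0.04 without WT replicate 1), 4 had all cKO values above WT and 2 all below, against 8.69% and 9.92% of all genes. Of the 22, 11 were positive with a median of -0.01, 3 had all cKO values above and 6 all below.

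Top1 and Top2b code for topoisomerases, which relieve the supercoiling that a moving polymerase builds up. Top1 had 13.9, 16.4 and 16.86 FPKM in WT and 16.98, 17.9 and 19.01 FPKM in cKO, just apart (log2 difference 0.18, SE 0.12, limma adjusted p = 0.528). Top2b had 13.3, 12.6 and 13.3 FPKM in WT and 11.7, 15.1 and 16.99 FPKM in cKO, with overlap. Cdk12, a kinase of the polymerase tail whose loss is known to hit long genes first, had 2.83, 5.84 and 5.49 FPKM in WT and 4.83, 4.804 and 7.11 FPKM in cKO, with WT replicate 1 the lowest, and the related Cdk13 had 6.12, 10.01 and 8.72 FPKM in WT and 8.82, 9.13 and 10.4 FPKM in cKO. Their differences were 0.23 and 0.19 with all libraries and -0.04 and 0.01 without WT replicate 1. Ell2, an elongation factor, had 1.87, 2.19 and 2.71 FPKM in WT and 2.77, 3.06 and 4.24 FPKM in cKO, apart by a small margin (log2 difference 0.41, SE 0.17, limma adjusted p = 0.402).

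Snrnp70, the core protein of the U1 particle that shields long introns from early polyadenylation, had 23.3, 24.7 and 29.1 FPKM in WT and 18.5, 15.1 and 16.98 FPKM in cKO. All cKO values were lower (log2 difference -0.58, SE 0.13, limma adjusted p = 0.360; -0.64 without WT replicate 1). Ptbp2, a splicing repressor, had 6.39, 6.47 and 5.90 FPKM in WT and 9.20, 11.3 and 11.7 FPKM in cKO. All its cKO values were higher (log2 difference 0.69, SE 0.12, adjusted p = 0.306). Qk had 22.2, 24.7 and 23.7 FPKM in WT and 26.9, 31.3 and 32.5 FPKM in cKO, all higher (log2 difference 0.34). Taf15 had 20.8, 22.6 and 20.6 FPKM in WT and 19.6, 14.2 and 14.7 FPKM in cKO, all lower (log2 difference -0.39). Sfpq, known to be needed for transcription of long genes, was level at 114, 112 and 117 FPKM in WT and 112, 110 and 114 FPKM in cKO (log2 difference -0.03, SE 0.11).

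Levels of cell type markers differed between the libraries. In bulk tissue fewer cells of a type and less RNA per cell cannot be told apart. Of 25 Sertoli markers 2 had a positive difference, with a median of -0.33 (-0.30 without WT replicate 1), and their summed level was 2221 to 2903 FPKM in WT, highest in WT replicate 1, and 1690 to 1925 FPKM in cKO. Of 11 tested general germ cell markers 11 were positive, with a median of 0.49 and summed levels of 240.4 to 404.6 FPKM in WT and 316 to 467 FPKM in cKO. Stromal and myoid markers had a median of -0.01 over 14 genes (-0.11 without WT replicate 1) and sums of 1499 to 1608 and 1232 to 1490 FPKM, and endothelial markers a median of -0.05 over 10 genes (-0.15 without it) and sums of 106 to 117 and 96.6 to 106 FPKM. Red blood cell markers had the largest median, 0.69 with 7 of 7 positive (0.63 without WT replicate 1), and sums of 2717 to 5699 and 4868 to 6495 FPKM, with centred medians of -0.88 and -0.80 in WT replicates 1 and 2 against 0.46 in WT replicate 3. Meiotic markers had a median of 0.22 over 13 genes (0.42 without WT replicate 1) and sums of 49.6 to 84.1 and 68.0 to 93.97 FPKM. Medians were 0.04 over 11 genes of spermatogonia (sums 127 to 274 and 140.2 to 220.2 FPKM), 0.04 over 10 of Leydig cells (1483 to 2175 and 1705 to 1950.1 FPKM) and 0.06 over 8 of macrophages (67.9 to 86.4 and 66.7 to 111 FPKM).

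None of the 78 very long genes is in a marker list, and the part of cell makeup in their values was not tested.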

How the data were processed

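Whole-testis RNA of 3 WT and 3 cKO mouse samples was measured. Extraction used Trizol and libraries a SMARTER mRNA-Seq kit, per the labels' protocols. FPKM values were deposited by the authors in 1 table with each gene's span, length and biotype. GRCm38 and mm10 are the builds named per the submitters' processing notes. Aligner, counter, annotation and strand setting were not given in the sources used here. Gene starts in the table matched GENCODE M21 on GRCm38 for 565 of 23381 identifiers, so printed positions, transcripts, GC and sequences are those of GENCODE M21, looked up by identifier.

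FPKM times gene length gave whole reads for 100% of values within a tolerance of 0.01. These reads have no molecular identifiers. Groups were taken from the genotype label. The test was limma 3.58.1 in R 4.3.3, with its mean-variance trend, on log2(FPKM + 1), a pseudocount of 1. It was fitted on the 14238 genes with a mean of at least 1 FPKM and adjusted by Benjamini-Hochberg with a threshold of 0.05. It called 2 genes, and limma voom on recovered reads called 0. A run of the test on simulated data used planted differences larger than any seen among the very long genes. Differences of their size were not covered by it. Centred values have the gene's mean of log2(FPKM + 1) over 6 libraries subtracted. Medians and counts over the very long genes have no test. An exact permutation test of 3 against 3 libraries cannot go below p = 0.1.

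The very long genes and all lists were chosen with earlier results of these data known. Genes named are the 10 per direction with the smallest p, the 3 of highest level per role, the 5 of largest span and the 3 on each side of the limits. Of the factor lists, those named are Srsf2, Top1, Top2b, Cdk12, Cdk13, Sfpq, Snrnp70 and the 2 per direction with the smallest p in each list. One gene that this rule takes is not reported here. Asic2, Wwox and Pcdh9 are named by intron length. Arhgap6 was named after its values were seen. Other settings were pseudocounts of 0.1 and 0.5, no filter or 5 FPKM, TPM scale, median-of-ratios scaling, limma without trend or robust, a replicate block, voom on recovered reads, removal of length and GC trends (splines with 5 degrees of freedom), protein-coding genes alone, spans of 300 or 1000 kb, and leaving out each library. Splicing itself is not analysed here. Python 3.11.15 with pandas 2.3.3, numpy 2.4.6 and matplotlib 3.10.9 handled tables and plots.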

Additional observations from a re-analysis of the deposited data

How the results depend on the processing

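None of the very long genes passed the threshold under any of 22 other settings, and none of the elongation and long-intron factors under the 19 run for them, with a lowest adjusted p of 0.248 for a very long gene (without cKO replicate 1). The median difference of the very long genes (0.09) was 0.13 and 0.11 with pseudocounts of 0.1 and 0.5, and 0.04 without a filter. On the TPM scale it was 0.13, and with voom 0.16. After removal of trends on gene length or on gene length and GC it was -0.02 and -0.01. It was 0.02 after removal of a trend on span. Over the 56 genes whose transcript with the most exon bases spans at least 500 kb it was 0.09. Both settings were chosen after seeing the data. Leaving out a library gave -0.01 (WT replicate 1) to 0.17 (WT replicate 2). Of all genes tested, 18.6% had separate groups in the main setting. Of the 33909 genes fitted without a filter, 5.34% were separate and higher in cKO and 6.22% separate and lower. Shares over all genes were not computed for most other settings, so the counts that follow are only a description. The count of very long genes with separate groups (8, of which 7 higher in cKO) was 23 of 219 (21 higher) without a filter and 1 of 19 at 5 FPKM. It was 10 (3 higher, 7 lower) with the length trend removed and 14 (7 higher, 7 lower) with length and GC trends removed, 43 of 268 at 300 kb and 2 of 12 at 1000 kb, and 10 to 25 when a library was left out, where fewer libraries make separation more frequent: 22 and 25 without WT replicates 1 and 2, and 17 and 19 without cKO replicates 1 and 2. The difference in read share (0.0344 percentage points) was 0.109 at 300 kb, where more genes enter. Deviations of same-numbered libraries from their group means had correlations of 0.09, -0.33 and 0.39 over 14238 genes. Libraries of unlike number had correlations from -0.45 to 0.35. With 3 libraries per group these values cannot settle whether the numbers pair the libraries. With the replicate block 0 very long genes and 0 of all genes were called. Of 44 named genes 23 took the other sign under some setting, in 58 of 854 values, and 37 values moved by more than the spread. At 22 reads per library, as in Fhit, counting limits precision.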

Other observations

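The 149 protein-coding genes that span at least 500 kb but lie below 1 FPKM were left out of the comparison. Reads were found for 141 of them, their median level was 0.220 FPKM, and 52 were below 0.1 FPKM. Only the 141 genes with reads entered the fit without a filter on level. Of these 141, 99 had a positive difference, and the median was 0.03. All cKO values lay above WT in 14 and below in 1, and WT replicate 1 was the single lowest library in 44. The lowest adjusted p by limma was 0.681. Over all 33909 genes fitted without a filter, 49.3% had a positive difference, 5.34% had all cKO values above WT and 6.22% all below, and WT replicate 1 was the single lowest library in 15.9%.

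Nearest to the limit was Rora, a nuclear receptor, with 0.770, 0.943 and 1.07 FPKM in WT and 0.807, 1.10 and 1.17 FPKM in cKO. Dlgap1, a scaffold of the postsynapse, had 0.619, 1.03 and 1.16 FPKM in WT and 0.999, 0.920 and 1.10 FPKM in cKO. Macrod2, a hydrolase of ADP-ribose on proteins, had 1.18, 0.699 and 0.892 FPKM in WT and 0.994, 0.996 and 1.05 FPKM in cKO, with WT replicate 1 the highest. The groups overlapped in all 3 genes.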
